A study of Homo sapiens with 6 samples.

Results

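The miRNAs described here are the human entries hsa-miR-6720 to hsa-miR-6895, of which many were annotated as mirtrons, in small RNA libraries of Caco-2 cells. The members were chosen by name and by their counts: of 346 rows with a number in this range, the rows whose counts summed over the 6 libraries reached 10 were kept, which left 218 of the 2588 miRNA rows in the series. They comprise 109 5p arms, 108 3p arms and miR-6745, whose name gives no arm, and they come from 139 hairpin names, of which 79 have both arms among the members. Of the other rows in the range, 92 had 1 to 9 counts and 36 had none. Just inside the threshold, miR-6726-5p, miR-6796-3p, miR-6842-5p and miR-6850-3p had 10 summed counts each, and 8 rows just outside it had 9, among them miR-6747-5p and miR-6849-5p.

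Caco-2 is an established line from a human colorectal adenocarcinoma, and the cells were cultured without further treatment. Total RNA was decapped and heat-denatured, and RNA bound by an antibody against N7-methylguanosine (m7G) was recovered, which gave 3 m7G-RIP libraries. The 3 input libraries were made from RNA set aside after denaturation. The comparison asks which miRNAs are over-represented among the RNA that the antibody bound. Nothing in the labels says that the 3 libraries of a group came from separate cultures, so p-values measure only the spread between these libraries.

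A mirtron is a short hairpin that is released from its host transcript by splicing, so that the ends of the hairpin are the ends of an intron and no cleavage by Drosha is needed. In a tailed mirtron only one end of the hairpin is a splice site, and the extra bases on the other side are trimmed. Because mammalian introns end in a pyrimidine-rich stretch followed by AG, mirtron 3p arms tend to be rich in C and U, and the 5p arms that pair with them rich in G. m7G is the base of the mRNA cap and also occurs inside tRNA, rRNA and some miRNAs, where METTL1 is one enzyme that places it.

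The mature sequences show this build. Of the 218 members, 191 had a sequence in RefSeq (GRCh38.p14), and the ones printed below are both arms of the 5 hairpins with the clearest difference between arms in m7G-RIP, and then of 2 hairpins with no call. They are written 5′ to 3′ with the seed, bases 2 to 8, in capitals.
miR-6800-5p: gUAGGUGAcagucaggggcgg
miR-6800-3p: cACCUCUCcuggcaucgcccc
miR-6734-5p: uUGAGGGGagaaugagguggaga
miR-6734-3p: cCCUUCCCucacucuucucucag
miR-6812-5p: aUGGGGUGagauggggaggagcagc
miR-6812-3p: cCGCUCUUccccugaccccag
miR-6765-5p: gUGAGGCGgggccaggagggugugu
miR-6765-3p: uCACCUGGcuggcccgcccag
miR-6777-5p: aCGGGGAGucaggcaguggugga
miR-6777-3p: uCCACUCUccuggcccccag
miR-6729-5p: uGGGCGAGggcggcugagcggc
miR-6729-3p: uCAUCCCCcucgcccucucag
miR-6789-5p: gUAGGGGCgucccgggcgcgcggg
miR-6789-3p: cGGCGCCCgugucuccuccag

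The arms of MIR6800 lie in an intron of MED25, a Mediator subunit gene, at chr19:49832022-49832042 (5p) and chr19:49832076-49832096 (3p) on the + strand. The 5p arm starts on the first base of this 78-base intron, and the 3p arm ends 3 bases before its last base. MIR6765 fills an 87-base intron of the Notch ligand gene JAG2 (5p arm at chr14:105150840-105150864 on the - strand), with the 5p arm on its first and the 3p arm on its last base. MIR6789 does the same in a 94-base intron of PLEKHJ1 (5p arm at chr19:2235899-2235922 on the - strand). In MIR6734 (ELOVL1, a fatty acid elongase gene; 3p arm at chr1:43364648-43364670 on the - strand), MIR6812 (PIGT; chr20:45425553-45425573 on the + strand), MIR6777 (SREBF1, a regulator of lipid synthesis; chr17:17813480-17813499 on the - strand) and MIR6729 (MIIP; chr1:12029202-12029222 on the + strand), the 3p arm ends on the last base of an intron and the 5p arm begins inside it. MED25, ELOVL1 and PLEKHJ1 have annotated transcripts in which the arms also overlap an exon.

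At the 3′ end of the hairpins these examples are typical of the members, and at the 5′ end they are not. Among the 94 3p arms with a sequence, 78 (83%) ended exactly at the end of an annotated intron (GENCODE release 44) and 90 (95.7%) within 5 bases of it, against 11.4% within 5 bases among the other 352 3p arms with at least 10 summed counts. The letters AG closed 78 of the 94 (83%), against 12.2% of the other 3p arms. At the other side of the hairpin, only 8 of 96 5p arms began on the first base of an intron and 10 (10.4%) within 5 bases of it, against 3.63% of the other 5p arms. By position, the name mirtron-like therefore holds at the 3′ end of the hairpins, and for most members not at the 5′ end. A same-strand intron held 95 of the 96 5p and all 94 3p arms, and the median length of that intron was 361 bases for the 5p arms and 286.5 for the 3p arms, against 4895 and 5660 for the other miRNAs.

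The arms differed in base composition. The median G share was 50% in the 5p members and 14.3% in the 3p members, against 29.2% and 22.7% in the other 5p and 3p arms, while the median C share was 13.6% in the 5p members and 45.5% in the 3p members. A run of 3 or more G occurred in 85 of the 96 5p members (88.5%) and in no 3p member, against 37.5% of the other 5p arms. The pattern of 4 runs of GG separated by 1 to 7 bases, which is the letter pattern of a 2-layer G-quadruplex, was found in 33 of the 5p members (34.4%) and in 7.85% of the other 5p arms. The 191 sequences carried 184 different seeds, so the members are no seed family. The seed most often shared was UGGGGUG, in miR-6737-5p, miR-6812-5p and miR-6819-5p.

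The members were rare in Caco-2 cells. An input library held 16466178 to 19628046 counts, an m7G-RIP library 1654102 to 3105129, and the median member had 44 counts over all of them. The members took 0.021%, 0.0177% and 0.0195% of the counts in the 3 input libraries and 0.106%, 0.132% and 0.197% in the 3 m7G-RIP libraries, so each m7G-RIP library lay above each input library. Without the 3 most abundant miRNAs of the input in the denominator, the means were 0.0488% and 0.178%, in place of 0.0194% and 0.145%. A count of 3, taken as the floor, stood for 0.235 to 0.262 CPM (counts scaled to library size with TMM factors) in the input and for 0.675 to 1.1 in m7G-RIP, and the reads carry no molecular identifiers, so that counting intervals cover counting error only. All 7 intestinal or epithelial markers were present in the input, from miR-141-3p at 260 CPM to miR-192-5p at 54900 CPM. Of 8 markers of other cell types, the liver marker miR-122-5p and the blood marker miR-223-3p had no count there. Other blood markers were present, with miR-142-3p at 5.99, miR-142-5p at 2.62 and the erythroid miR-451a at 4.83 CPM. The neuronal miR-124-3p, at 0.173 CPM, was below the floor. The highest were the muscle markers miR-1-3p at 644 CPM and miR-133a-3p at 60.7 CPM. The part of these markers in the results was not tested.

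The most abundant member was miR-6724-5p, which is also the 1 member with a sequence that lies in no annotated intron. It had 572, 404 and 444 counts in the input libraries and 556, 1096 and 972 in the shallower m7G-RIP libraries, or 39.7 ± 8.60 CPM against 247 ± 112 CPM (SD, n = 3). Every m7G-RIP library was above every input library, and the log2 enrichment was 2.63 (SE 0.30, edgeR adjusted p = 3.84e-06). Its hairpin has 4 annotated loci, and all 6 of its counts were multiples of 4. In the same way, all counts were multiples of the number of loci for every member with several loci, 7 of 7 rows. These were both arms of miR-6859 (4 loci), miR-6770 (3) and miR-6862 (2), and miR-6724-5p. Among other miRNAs with several loci and at least 10 summed counts, this held for 19 of 41 rows. Counts are such multiples when 1 read is counted at each locus, and the levels of these members may be overstated by that factor. The counts of miR-6777-3p, with 1 locus, were all multiples of 5, for which the files give no reason. Dividing the multi-locus counts by their number of loci left the log2 enrichment of miR-6724-5p at 2.63.

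Next in the input came 3p arms. miR-6842-3p had 267, 287 and 241 counts in the input and 42, 35 and 41 in m7G-RIP, which is 22.1 ± 0.93 CPM against 11.1 ± 3.69 CPM (SD, n = 3). All its m7G-RIP values lay below all its input values, with a log2 enrichment of -1.02 (SE 0.29, edgeR adjusted p = 0.00512), but the direction turned to 0.093 when libraries were scaled by total counts alone. miR-6747-3p had 177, 195 and 160 counts in the input and 352, 141 and 88 in m7G-RIP, with 14.8 ± 0.71 CPM against 49.9 ± 30.8 CPM (SD, n = 3) and a log2 enrichment of 1.76 (SE 0.35, edgeR adjusted p = 0.00043). The groups of miR-6747-3p did not overlap, although its first m7G-RIP library stood well above the other two. miR-6789-3p, with 118, 153 and 128 counts in the input and 71, 74 and 37 in m7G-RIP, had a log2 enrichment of 0.52 (SE 0.26, edgeR adjusted p = 0.0866) and was not called. miR-6866-5p, miR-6737-3p, miR-6723-5p and miR-6798-3p, all among the 10 most abundant members of the input, were not called either, with log2 enrichments of -0.029, 0.41, 0.70 and 0.60. Scaling decides these calls: with total counts miR-6866-5p turned to 1.05 and was called, and miR-6789-3p (1.61), miR-6737-3p (1.56), miR-6723-5p (1.76) and miR-6798-3p (1.72) were called as enriched, the last 4 also with upper-quartile factors.

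In m7G-RIP the order of the members was another. Of the 10 most abundant members of the m7G-RIP libraries, 4 were also among the 10 of the input (miR-6724-5p, miR-6747-3p, miR-6789-3p and miR-6812-3p). miR-6800-5p rose from 1.67 ± 0.20 CPM in the input to 40.03 ± 13.5 CPM in m7G-RIP (SD, n = 3), and miR-6734-5p from 0.729 ± 0.16 to 20.7 ± 9.52 CPM. miR-6805-5p went from 2.36 ± 0.69 to 23.9 ± 15.6 CPM, a log2 enrichment of 3.31 (SE 0.47, edgeR adjusted p = 2.73e-05). miR-6777-3p, miR-6807-5p and miR-6803-3p completed this group with log2 enrichments of 1.56, 1.93 and 1.81.

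**Figure D1:**
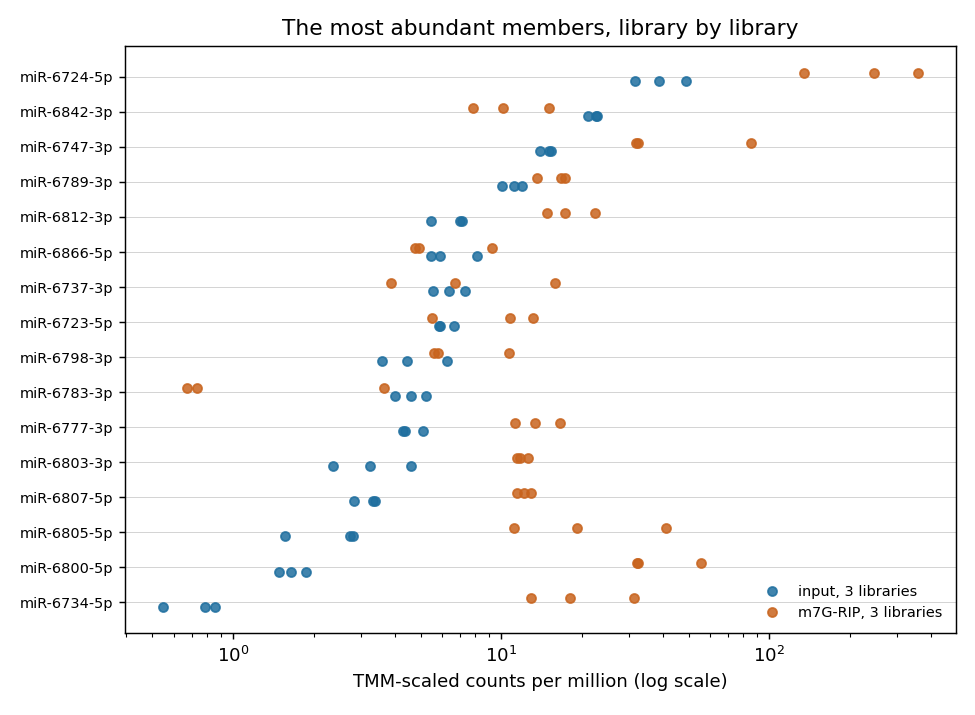
TMM-scaled CPM on a log axis of the 16 members that are among the 10 most abundant of the input or of m7G-RIP, with 1 point for each of the 3 input (blue) and 3 m7G-RIP (orange) libraries. The m7G-RIP points of miR-6800-5p and miR-6734-5p lie far to the right of their input points, those of miR-6842-3p to the left, and those of miR-6866-5p overlap them.

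To ask how the members as a whole were recovered, enrichment was computed in edgeR for every miRNA with at least 10 summed counts, 1221 in all, so that every member was tested. Of the 109 5p members, 64 (58.7%) were enriched and 5 (4.59%) depleted, with a median log2 enrichment of 2.50. Of the 108 3p members, 19 (17.6%) were enriched and 16 (14.8%) depleted, with a median of 0.69. Over all 1221 miRNAs, 25.4% were enriched and 35.1% depleted, with a median of -0.35. These shares are set beside the background as a description, and the differences between them were not tested. Without single libraries, 46 to 64 5p members were enriched and 1 to 5 depleted, and 14 to 22 3p members were enriched and 7 to 17 depleted, with the 16 depleted 3p members down to 7 without the first or the second input library. miR-6745 was not called (log2 enrichment 2.38).

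Scaling changes these counts. With total counts alone the median of all 1221 miRNAs was 0.96, and 87 5p members (79.8%) were enriched and none depleted, while 56 3p members (51.9%) were enriched and 2 depleted. Over all miRNAs 44.3% were then enriched, so the share of enriched 3p members lay below the background with TMM and above it with total counts. With upper-quartile factors the median was 0.16, with 75 and 2 calls for the 5p and 31 and 8 for the 3p members, and 28.7% of the 3p members were enriched against 33.1% of all miRNAs. The median of the 5p members stayed above that of the 3p members by each scaling, at 2.36 against 0.53 with RLE size factors and at 3.83 against 2.01 with total counts.

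Other 5p arms behaved differently from the 5p members in the same fit: of 364, 27.5% were enriched and 44.2% depleted, with a median log2 enrichment of -0.93. Of the other 378 3p arms, 15.3% were enriched and 47.4% depleted, with a median of -1.19. The members are rarer than these miRNAs, with a median of 44 summed counts in the 5p and 46.5 in the 3p members against 308.5 and 196.5 in the other 5p and 3p arms. The part of abundance in this comparison was not tested. The mirtrons named earlier, miR-877 and miR-1224 to miR-1238, gave 16 rows with at least 10 counts, of which 10 were enriched and 1 depleted, and their medians by arm were 3.11 (7 5p rows) and 0.74 (9 3p rows). The late-annotated rows miR-3000 to miR-5999 were nearer the members in abundance, with median summed counts of 41 (92 5p rows) and 73.5 (92 3p rows). Of these 5p rows, 35.9% were enriched and 13% depleted, with a median log2 enrichment of 0.76. Of these 3p rows, 21.7% were enriched and 31.5% depleted, with a median of -0.28.

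**Figure D2:**
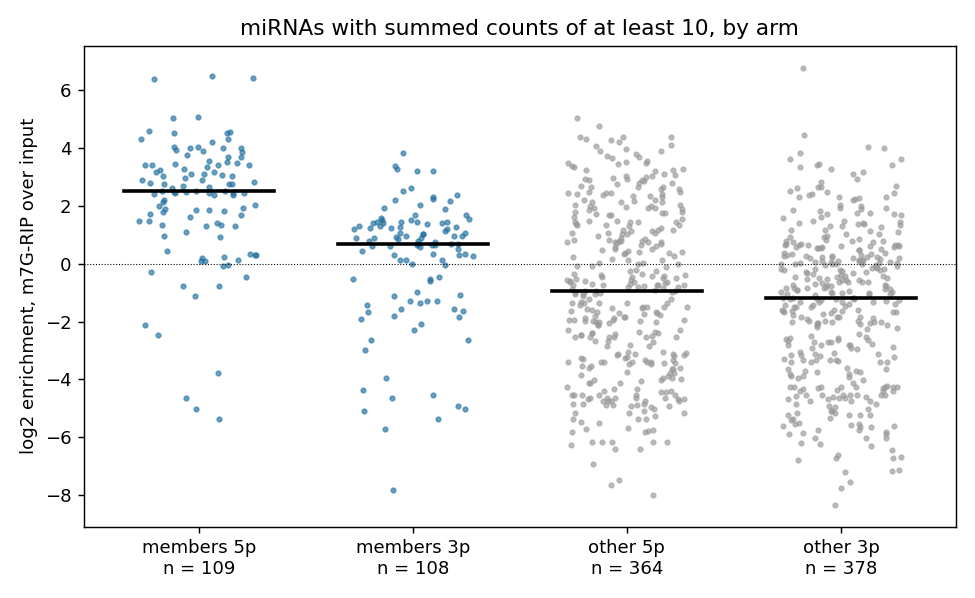
log2 enrichment of m7G-RIP over input for miRNAs with at least 10 summed counts, 1 point per miRNA, for 109 5p and 108 3p members (blue) and 364 other 5p and 378 other 3p arms (grey), with black lines at the medians of 2.50, 0.69, -0.93 and -1.19. The 5p members lie mostly above 0. Points at the top and bottom of the member columns are miRNAs with no count in 1 group, whose fitted values are not bounds.

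Some members were seen in 1 group only. No count in any input library was found for 3 members, all 5p arms: miR-6746-5p, miR-6796-5p and miR-6823-5p, which were at least 5.95-fold, 6.38-fold and 6.33-fold higher in m7G-RIP when set against 3 counts in each input library. The bound of miR-6746-5p rested on the first m7G-RIP library, as its counts there were 16, 1 and 1, and without that library it was 1.18-fold. miR-6796-5p had 2, 11 and 5 counts and miR-6823-5p 1, 7 and 8, and their lowest bounds without 1 library were 4.64-fold and 3.63-fold, the latter without the third. No count in any m7G-RIP library was found for 11 members, of which 8 were 3p arms. The fit called 9 of these 11 depleted, and they are among the depleted members counted above. For 10 of the 11, however, the input level was below what 3 counts in each m7G-RIP library stand for, so no fold is given for them, and miR-6770-3p is the exception. With all such members at their bound, the median of the 5p members was 2.50 and that of the 3p members 0.81. For the 10 without a fold, this bound lay on the side of enrichment, which raised the 3p median from the fitted 0.69. The value of 0.81 is therefore not the more cautious of the 2.

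The stricter default filter of edgeR kept 800 miRNAs, of which 114 were members, and left out the other 104. Among the tested members, 80 were enriched, 5 depleted and 29 not called, against 40.1% enriched and 38.1% depleted over all 800. As 81 of the 114 members (53 of 65 5p and 28 of 49 3p arms) passed this filter through their m7G-RIP counts alone, these counts are no measure of how often members are enriched. The values of single members given here come from this fit. The CPM of every m7G-RIP library was above that of every input library for 79 of the tested members, against 41.4% of the 800 miRNAs, with the same reservation.

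The 8 members with the highest log2 enrichment that also rose in all 3 same-numbered pairs of libraries were all 5p arms. miR-6800-5p had 22, 21 and 17 counts in the input and 132, 144 and 151 in m7G-RIP, with a log2 enrichment of 4.56 (SE 0.33, edgeR adjusted p = 3.9e-08). miR-6734-5p had 10, 7 and 9 counts in the input and 53, 80 and 85 in m7G-RIP, with a log2 enrichment of 4.79 (SE 0.44, edgeR adjusted p = 4.68e-07). Both had more counts in each m7G-RIP library than in any input library, although the input was sequenced more deeply.

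The rest of this group rested on few input reads. miR-6819-5p, which shares its seed with miR-6812-5p, had 2, 5 and 1 counts in the input and 21, 21 and 31 in m7G-RIP, with a log2 enrichment of 4.87 (SE 0.65). miR-6846-5p had 4, 0 and 0 counts against 9, 32 and 16 (log2 5.32, SE 0.89), and miR-6779-5p had 0, 3 and 2 against 9, 22 and 16 (log2 4.80, SE 0.75). Their groups did not overlap, but a few reads more or less in the input would move these values. miR-6885-5p (log2 4.75) and miR-6855-5p (log2 4.57) had 4 input counts each in all 3 libraries together. miR-6748-5p had 0, 1 and 2 counts in the input and 15, 9 and 17 in m7G-RIP, and from such counts its ratio of pooled CPM is 43.6, with a 95% exact counting interval from 13.9 to 220.

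The 5 depleted members, 4 of them 3p arms, are named in full. Their number was 1 without any 1 input library and 8 to 14 without an m7G-RIP library. Beside miR-6842-3p they include miR-6783-3p, with 54, 67 and 46 counts in the input and 15, 3 and 2 in m7G-RIP (log2 -1.40, SE 0.57, edgeR adjusted p = 0.0377). miR-6780b-3p had 47, 38 and 45 counts against 10, 6 and 3 (log2 -1.12, SE 0.49, edgeR adjusted p = 0.0495), and miR-6815-5p, the only 5p arm, had 26, 24 and 22 against 0, 4 and 2 (log2 -1.88, SE 0.73, edgeR adjusted p = 0.0315). All their m7G-RIP values lay below all input values. The calls of these 3 were lost with total counts, where log2 enrichments were -0.35, -0.062 and -0.81. The call of miR-6783-3p was also lost when any input library or the second or the third m7G-RIP library was left out, that of miR-6780b-3p without the second or the third and that of miR-6815-5p without the first m7G-RIP library.

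miR-6770-3p, in introns of NPIPA1 and its copies on chromosome 16, had 30, 54 and 39 counts in the input and none in any m7G-RIP library, so it was at least 4.06-fold lower in m7G-RIP (against 3 counts in each library). All its counts were multiples of 3. If 1 read was counted at 3 loci, this bound rests on fewer reads than counts. The floor of 3 counts would then stand for 1 read, and a bound set against 3 reads would be lower than 4.06-fold. By total counts or upper-quartile factors, 1 tested member was depleted, and it was miR-6770-3p.

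Since both arms of a hairpin are read in the same libraries, their ratio does not depend on how libraries are scaled. With every arm of at least 10 summed counts admitted, 34 of 79 member hairpins (43%) had a more enriched 5p arm and none a more enriched 3p arm, by edgeR's test of arms within a hairpin name, against 37.4% and 16.2% of 340 hairpin names. The median difference between the arms was 2.45 on the log2 scale in the members and 0.62 in the other 261 hairpin names. Without single libraries the count of 34 ranged from 24, without the first or the second input library, to 34, and 1 hairpin had the more enriched 3p arm without the first m7G-RIP library. Both arms of 22 member hairpins passed the default filter, and among these the 5p arm was more enriched in 14 and the 3p arm in none, with 8 not called, against 48.5% and 22.7% of the 194 hairpin names tested. In 20 of the 22 at least 1 arm passed that filter through its m7G-RIP counts alone (19 5p and 14 3p arms), so the 14 is no measure of how often the arms of members differ. It was 6 to 8 without 1 input library and 19 to 21 without 1 m7G-RIP library. Of the mirtrons named earlier, the 5p arm was also more enriched in miR-877, miR-1226, miR-1228, miR-1229 and miR-1236, by 2.23 to 4.27 on the log2 scale. These were all the hairpins of that list with both arms past the default filter. Values of single hairpins below come from the fit with this filter.

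The hairpin with the smallest p was MIR6800. Its 5p arm held 50%, 55.3% and 56.7% of the counts of both arms in the input and 93.6%, 85.2% and 93.2% in m7G-RIP, a difference between arms of 3.12 on the log2 scale (SE 0.60, edgeR adjusted p = 0.000109). The 3p arm, miR-6800-3p, had 22, 17 and 13 counts in the input and 9, 25 and 11 in m7G-RIP (log2 enrichment 1.44, SE 0.51, edgeR adjusted p = 0.0186), a call that was lost with every member tested (edgeR adjusted p = 0.061). In this hairpin the arms were about level in the input and far apart in m7G-RIP.

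MIR6734 was alike, with a 5p share of 45.5%, 36.8% and 64.3% in the input and 84.1%, 94.1% and 95.5% in m7G-RIP and an arm difference of 3.73 (SE 0.74, edgeR adjusted p = 0.000137). In MIR6812 and MIR6777 the 3p arm was the major arm of the input. The 5p share of MIR6812 was 1.2%, 9.09% and 6.82% in the input and 22.8%, 34.7% and 39% in m7G-RIP, an arm difference of 3.01 (SE 0.68, edgeR adjusted p = 0.000339). Here both arms were enriched, miR-6812-5p by 4.47 and miR-6812-3p by 1.46 on the log2 scale. For MIR6777 the share went from 14.3%, 14.1% and 7.41% to 32.9%, 42.5% and 40.8%, with an arm difference of 2.17 (SE 0.58, edgeR adjusted p = 0.00135), and it is this 3p arm whose counts were multiples of 5.

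MIR6765 parted most among member hairpins with 1 locus past the default filter, though not with every arm of at least 10 summed counts tested. miR-6765-5p had 7, 6 and 7 counts in the input and 21, 18 and 31 in m7G-RIP. Its 3p arm, miR-6765-3p, had 26, 2 and 25 in the input and 4, 0 and 0 in m7G-RIP. The arm difference was 5.60 (SE 1.27, edgeR adjusted p = 0.000479), though the second input library had a 5p share of 75%, unlike the 21.2% and 21.9% of the others. MIR6870, in an intron of the Notch ligand gene JAG1, had a 5p share of 1.75%, 1.96% and 3.92% in the input and 12.2%, 45.5% and 12.5% in m7G-RIP (difference 2.84, SE 0.90, edgeR adjusted p = 0.01). miR-6870-3p itself was not called (log2 enrichment 0.22), so the hairpin moved through its minor arm.

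The arms of MIR6894, MIR6885, MIR6821, MIR6819, MIR6802, MIR6740 and MIR6758 also differed, by 2.15 to 3.28 on the log2 scale. Of these, the calls of MIR6740, MIR6758 and MIR6802 were lost when single libraries were left out, with the adjusted p of MIR6758 at 0.155 without the second m7G-RIP library and that of MIR6802 at 0.154 without the third. The call of MIR6740 was also lost with every arm of at least 10 summed counts tested (edgeR adjusted p = 0.0846). The call of MIR6770 rested on the first m7G-RIP library alone, the only one with a count for either arm. That library had 18 counts on the 5p arm, where 1 read may have been counted at several loci. Without it the arm difference of 7.95 became 1.33 (edgeR adjusted p = 0.687), and the log2 enrichment of miR-6770-5p went from 0.20 to -6.55.

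In 8 hairpins the arms were not called different. miR-6729-5p had 2, 5 and 3 counts in the input and 9, 5 and 17 in m7G-RIP, and miR-6729-3p had 10, 4 and 7 in the input and 7, 27 and 42 in m7G-RIP. Both were enriched, by 3.37 and 3.63 on the log2 scale, and the arm difference was -0.26 (SE 1.03). MIR6785 likewise had 2 enriched arms (3.44 and 3.46, with a difference of -0.024, SE 0.94), and so had MIR6805 (3.31 and 2.48), MIR6797 (2.76 and 2.15), MIR6741 (3.80 and 2.45), MIR6881 (3.05 and 1.69) and MIR6862 (2.77 and 1.71). The 5p share of MIR6741 was 11.1%, 27% and 0% in the input and 29.5%, 41.4% and 32.7% in m7G-RIP, which do not overlap, and its arm difference of 1.35 became 2.83 (edgeR adjusted p = 0.0142) without the second input library. The groups of miR-6862-3p overlapped, and its call was lost with RLE size factors, with DESeq2, with no filter, with every member tested (edgeR adjusted p = 0.0839) and without the third m7G-RIP library (0.71 on the log2 scale). MIR6789 had no enriched arm (0.16 and 0.52, with a difference of -0.36, SE 0.90). Standard errors near 1 leave room for differences of the size seen in the called hairpins, so these arms are not shown to be alike.

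**Figure D3:**
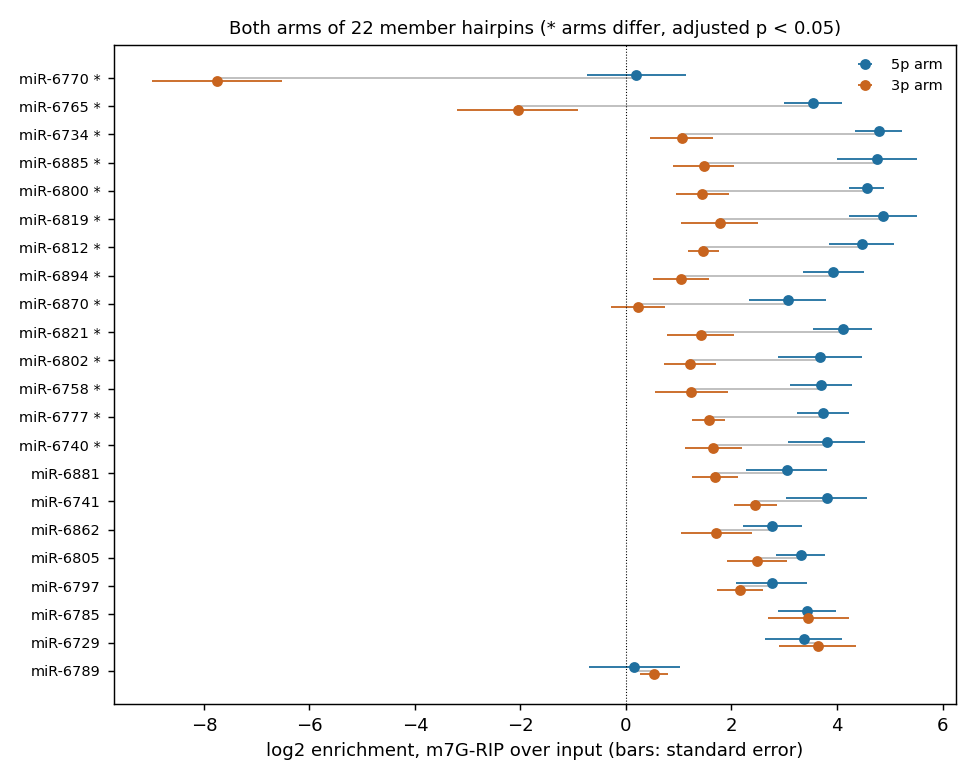
log2 enrichment of m7G-RIP over input with its standard error for the 5p (blue) and 3p (orange) arm of the 22 member hairpins with both arms past the default filter, ordered by the difference between arms. In the 14 hairpins with a star the arms differed and the 5p point lies to the right. In MIR6785, MIR6729 and MIR6789 the points nearly coincide or cross.

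The same contrast was visible in the summed counts. The 5p arms held 41.6%, 39.5% and 42% of the members' counts in the 3 input libraries and 58.9%, 70.5% and 73.5% in the 3 m7G-RIP libraries. Without miR-6724-5p these shares were 30.2%, 31.5% and 32.6% in the input and 50.5%, 59.6% and 62.3% in m7G-RIP. The groups did not overlap in either case, and most of the members' input reads came from 3p arms while most of their m7G-RIP reads came from 5p arms. For all other miRNAs the 5p share ran from 50.8% to 51.9% over the input libraries and from 54.7% to 59.5% over those of m7G-RIP.

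**Figure D4:**
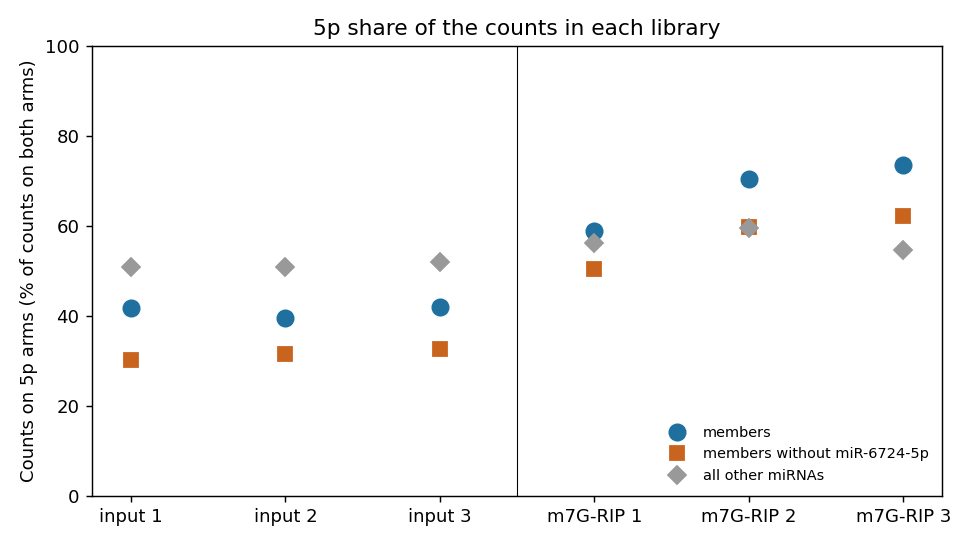
Percent of the counts on both arms that fell on 5p arms in each of the 6 libraries, for the members (circles), the members without miR-6724-5p (squares) and all other miRNAs (diamonds). The member points lie between 39.5% and 42% in the input and between 58.9% and 73.5% in m7G-RIP.

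Enrichment varied with base composition among the members. With every member tested, 52 of 77 members with a G share of at least 40% were enriched (67.5%) and 1 depleted, with a median log2 enrichment of 2.76. All but 1 of these 77 were 5p arms. Of the 187 other miRNAs with such a share, 63.6% were enriched, with a median of 2.16. Members with a G share from 20% to 40% were enriched in 16.7% and depleted in 21.4% (42 members, median 0.042), where the other 481 miRNAs had 13.9% and 47.8% and a median of -1.48. Below 20%, where all 72 members were 3p arms, 20.8% were enriched and 9.72% depleted (median 0.88), against 10% and 53.6% of 239 other miRNAs (median -1.64). G-rich members thus had values near those of other G-rich miRNAs, and G-poor members had higher values than other G-poor miRNAs. The members were rarer in each bin. From the highest to the lowest G share their median summed counts were 42, 46 and 48, against 105, 160 and 186 for the other miRNAs. The part of abundance in these differences was not tested.

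Within the arms the relation ran in opposite directions. Across the 96 5p members with a sequence, Spearman's rho between G share and log2 enrichment was 0.51 (Pearson's r 0.55). Across the 94 3p members it was -0.42 (r -0.45), while rho with the C share was 0.53 (r 0.55). Among the other miRNAs rho with G share was 0.54 in 331 5p and 0.19 in 352 3p arms. These are descriptions across miRNAs that share the same 6 libraries, and G and C shares of the members are tied to each other and to the arm. Of the 19 tested member hairpins with both sequences, 18 had more G on the 5p arm, and 11 of these 18 (61.1%) were called with a more enriched 5p arm, as were 51 of the 84 other hairpins with more G on the 5p arm (60.7%). Across the 19 member hairpins, the difference in G share had a Spearman's rho of -0.13 and a Pearson's r of -0.57 with the difference in enrichment, against 0.58 for both across 150 other hairpins. MIR6770 stood apart among the 19, with a G difference of 0 and the arm difference of 7.95 that rested on 1 library. In the rest the G difference ran from 28.4 to 54.1 percentage points. As r was not computed without MIR6770, its sign is not read as a trend of the members.

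**Figure D5:**
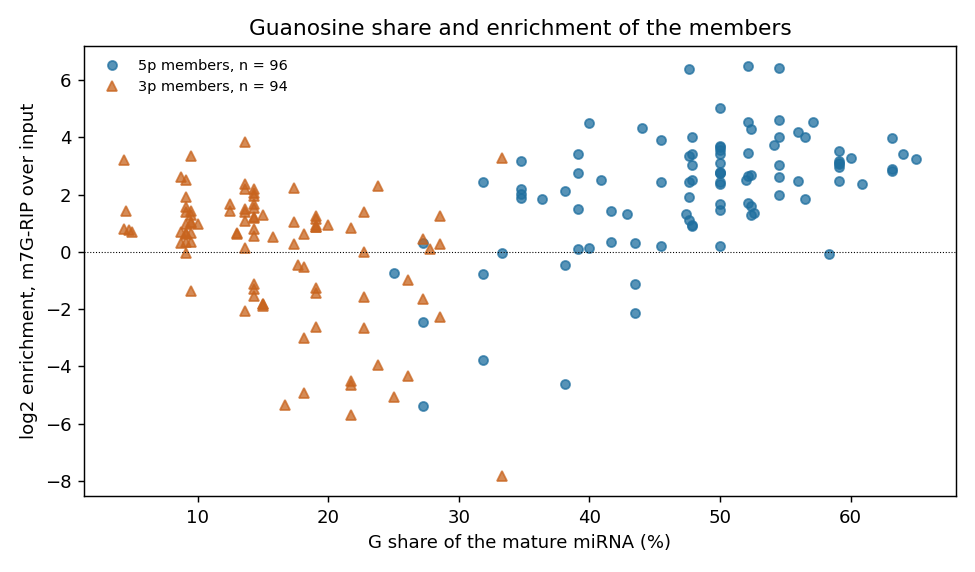
G share of the mature miRNA (x axis, percent) against log2 enrichment of m7G-RIP over input (y axis) for the members with a RefSeq sequence, 96 5p (circles) and 94 3p arms (triangles). The ranges of G share overlap between the lowest 5p arm (25%) and the highest 3p arm (33.3%). The values rise with G share in the 5p arms and fall with it in the 3p arms.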

How the data were processed

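The authors trimmed the reads with Trimmomatic and counted them on mature miRBase entries with featureCounts on GRCh38. The methods name STAR as aligner and the submitters' processing notes Bowtie2. The deposited values are raw counts per miRNA and library, and how reads with several loci were counted is not given in the sources used here. Members and lists were chosen with earlier results of these data known. For log2 enrichment, edgeR 4.0.16 was run under R 4.3.3 (TMM, quasi-likelihood test, Benjamini-Hochberg, called at an adjusted p under 0.05), with filterByExpr (minimum count 10, minimum total 15) and again over all miRNAs with 10 summed counts. The standard error is the absolute log2 value over the root of F. That of an arm difference combines the standard errors of both arms as if they were independent. Arms were compared with diffSpliceDGE, whose p does not rest on this combined standard error. Alternatives included DESeq2 1.42.0. Named members are the 10 highest in CPM in each group, the 8 highest and 8 lowest called members that moved alike in all 3 same-numbered pairs (5 were depleted), and arms of hairpins with both arms tested, and others were chosen after their values were seen. Steps were tested on simulated data. Sequences come from RefSeq, introns from GENCODE release 44; Python 3.11.15 and matplotlib 3.10.9 were used. No 2 libraries were copies.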

Additional observations from a re-analysis of the deposited data

How the results depend on the processing

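With the default filter, total counts and upper-quartile factors moved the 3p members enriched from 25 to 40 each, the depleted members from 5 to 1 each, and the medians of the 5p and 3p members from 3.37 and 1.41 to 4.48 and 2.53 and to 4.15 and 2.20; they shifted the median miRNA by 1.09 and 0.82, and RLE by -0.34 (3p median 1.07; DESeq2 1.11). The log2 enrichment turned to 0.093 for miR-6842-3p and 1.05 for miR-6866-5p with total counts, and to -6.55 for miR-6770-5p without the first m7G-RIP library (up to 0.70 without another). No filter gave 20 depleted members and medians of 2.45 and 0.64, and summed counts of at least 10 gave 21, 2.50, 0.69 and 34 hairpins with the more enriched 5p arm. At least 10 counts in every library left 24 members, with 17 enriched (8 5p, 9 3p), 1 depleted and a 5p median of 2.02. An adjusted p under 0.01 left 2 depleted.

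With every member tested (settings added after seeing the data), total counts gave 0 5p members depleted, 56 3p members enriched and 2 depleted; upper-quartile factors gave 2, 31 and 8; DESeq2 gave 3 5p members depleted. The members' share was 0.0488% of the input and 0.178% of m7G-RIP without the 3 most abundant miRNAs of the input. Without miR-6724-5p the mean 5p share was 31.4% in the input and 57.5% in m7G-RIP.

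Leaving out 1 library gave 60 to 91 enriched members (45 to 60 5p, 15 to 31 3p), 1 to 14 depleted, medians of 2.76 to 3.57 (5p) and 0.92 to 1.40 (3p), and 6 to 21 hairpins with the more enriched 5p arm, as the filter then admits other members (87 without an input library, 151 to 158 without an m7G-RIP library). With every member tested it gave 46 to 64 5p members enriched and 1 to 5 depleted, 14 to 22 3p members enriched and 7 to 17 depleted, and 24 to 34 hairpins with the more enriched 5p and 0 to 1 with the more enriched 3p arm.

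Deviations of same-numbered libraries had correlations of -0.030, -0.039 and 0.071, all under the 0.1 required here, so the libraries were not treated as pairs. Such values cannot show that they are unpaired, and the protocol takes the input from the RNA that is precipitated. With the replicate block, 73 members were enriched and 4 depleted, and 14 hairpins had the more enriched 5p arm. Among the named members, the call of the depleted miR-6780b-3p was lost (edgeR adjusted p = 0.0906). Those of the enriched miR-6862-3p, miR-6885-3p, miR-6800-3p, miR-6802-3p and miR-6819-3p were lost too (edgeR adjusted p from 0.0519 to 0.110). With every member tested and this block, 51 5p members were enriched and 1 depleted. Of the 3p members, 14 were enriched and 6 depleted, and 25 hairpins had the more enriched 5p arm.

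Of the values of single members and hairpins under all settings, 60 enrichments and 11 arm differences lost their call, 25 and 1 gained one (the 3 enrichments that changed sign included), and 727 and 195 kept their side of the threshold. The depth of m7G-RIP limits the depleted calls.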
